A study of Mus musculus with 6 samples.

Results

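Epithelial-mesenchymal transition (EMT) regulator genes were followed after knockdown of Pik3ca in the murine lung cancer line 344SQ. The set held 10 genes: the zinc finger repressor genes Zeb1, Zeb2, Snai1 and Snai2, the basic helix-loop-helix factor genes Twist1 and Twist2, the epithelial splicing regulator genes Esrp1 and Esrp2, and the epithelial transcription factor genes Grhl2 and Ovol1. Its members were the probe sets whose platform annotation gave exactly 1 gene symbol on this list, which found 23 of the 45101 probe sets on the array, covering all 10 genes of 18193 genes measured. Cells carrying a PIK3CA short hairpin RNA (shRNA) were compared with cells carrying a control shRNA, with 3 Affymetrix arrays in each group. Hairpin vectors were delivered by lipid transfection into cells grown with serum, and the labels do not say whether the cells were pools or clones, or what the control hairpin targeted. Both groups share the background of the line, which is known to come from a mouse lung tumour.

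EMT is a switch between cells held together by E-cadherin junctions and cells that are loose, motile and rich in vimentin. ZEB, SNAIL and TWIST factors drive it, in large part by binding E-box sequences in the promoters of junction and polarity genes and recruiting corepressors there. ESRP proteins, GRHL2 and OVOL1 hold the epithelial state: ESRP proteins select epithelial exons, while GRHL2 and OVOL1 restrain Zeb1. ZEB factors and the miR-200 family of microRNAs repress each other, and this loop is known to set the epithelial or mesenchymal state of 344SQ cells.

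The sequences of the miR-200 family, the best known repressors of the ZEB messages, are shown because 2 of the members are their targets. The microRNAs themselves were not measured here. Mature sequences are from RefSeq (GRCm38.p6), 5′ to 3′, with the seed at bases 2 to 8 in capitals, and they fall into 2 seed groups that differ by 1 base. The first group has miR-200b-3p at chr4:156055685-156055706, miR-200c-3p at chr6:124718324-124718346 and miR-429-3p at chr4:156053916-156053937. The second has miR-200a-3p at chr4:156054911-156054932 and miR-141-3p at chr6:124717917-124717938, and all 5 lie on the minus strand.
mmu-miR-200b-3p: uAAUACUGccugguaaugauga
mmu-miR-200c-3p: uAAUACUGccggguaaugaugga
mmu-miR-429-3p: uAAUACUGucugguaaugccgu
mmu-miR-200a-3p: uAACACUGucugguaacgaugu
mmu-miR-141-3p: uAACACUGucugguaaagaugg

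The values are the authors' deposited linear intensities, 1 per probe set and array. The median per array lay between 134.1 and 134.7, and about 15% of values on each array were below 16. A log2 change is the mean log2(intensity + 16) of PIK3CA shRNA arrays less that of control shRNA arrays, a scale that shrinks the changes of dim genes, and each gene is represented by its brightest probe set unless another is named. Nothing in the labels says that replicates were separate cultures, so the p-values cover only the array-to-array spread, and that may be technical. In bulk RNA, fewer cells with a message and less of it per cell cannot be told apart. The targeted gene Pik3ca had 1249, 1235 and 1223 intensity units in PIK3CA shRNA cells, against 2452, 2323 and 2362 in control shRNA cells, and its log2 change was -0.94 (limma adjusted p = 0.000762).

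Cells in both groups had the markers of an epithelial tumour line together with a mesenchymal filament. The E-cadherin gene Cdh1 averaged 11049 ± 99.4 in PIK3CA shRNA cells and 11342 ± 232 in control shRNA cells (SD, n = 3 each). Krt8 and Krt18, simple epithelial keratin genes, were at 12471 ± 129 and 14211 ± 277 in PIK3CA shRNA cells, against 11901 ± 313 and 13907 ± 727 in control shRNA cells (SD, n = 3 each). The vimentin gene Vim averaged 13991 ± 159.8 in PIK3CA shRNA cells and 14969.5 ± 497 in control shRNA cells (SD, n = 3 each). The 6 identity markers were Cdh1, Krt8, Krt18, Epcam, Krt19 and Krt7, and they ranged from 324 to 14738 intensity units over all arrays. Of these only Cdh1, Krt8 and Krt18 are shown with values, and they were named after their values were seen. Neither Vim nor any of the 6 identity markers passed adjusted p 0.05 by limma. Of these 6 markers, 0 were higher and 2 lower at an unadjusted p under 0.05, and 4 had a log2 change below 0. In some alternative settings 1 of the 6 passed as lower. These were a pseudocount of 64, dim genes left out, and an intensity trend with robust prior. The count was also 1 by the mean of probe sets and by each gene's most variable one. It was 0 in all other alternatives, single-array omissions included. Markers of other cell types had few calls, with 0 higher and 1 lower of 10 fibroblast genes, 0 and 0 of 9 leukocyte genes, and 0 and 0 of 10 endothelial genes. At an unadjusted p under 0.05 these counts were 0 and 3, 0 and 0, and 1 and 1. The lower fibroblast gene was Dcn, at 37.6 ± 2.76 in PIK3CA shRNA cells and 74.1 ± 8.77 in control shRNA cells (SD, n = 3 each); its log2 change was -0.75, and -0.33 as the mean of its probe sets. Summed intensities of these lists overlapped between groups: 1125 to 1529 in PIK3CA shRNA cells and 1296 to 1515 in control shRNA cells for fibroblast genes, 1061 to 1421 and 1169.5 to 1436 for leukocyte genes, and 903 to 1059 and 946 to 966 for endothelial genes. The log2 change was below 0 in 8 of 10 fibroblast genes, 6 of 9 leukocyte genes and 6 of 10 endothelial genes. List medians were -0.15, -0.04 and -0.06, beside -0.01 over all genes. No marker was listed at 0, and the part of these markers in the results was not tested.

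Across the 10 EMT regulators, 1 gene fell and none rose in PIK3CA shRNA cells by limma with Benjamini-Hochberg adjustment over all genes. That gene was Snai2, at about 71.0% of its control intensity. Over all genes 11.5% passed the same test (5.88% higher and 5.62% lower), so a share of 1 in 10 members is near the background. At an unadjusted p under 0.05 the members were 2 higher (Zeb1 and Zeb2) and 2 lower (Snai2 and Grhl2), against 25.9% of all genes. The groups stood apart, with no overlap of arrays, in 3 of the 10 members and in 33.1% of all genes. The median log2 change of the members was -0.02, beside -0.01 over all genes.

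**Figure D1:**
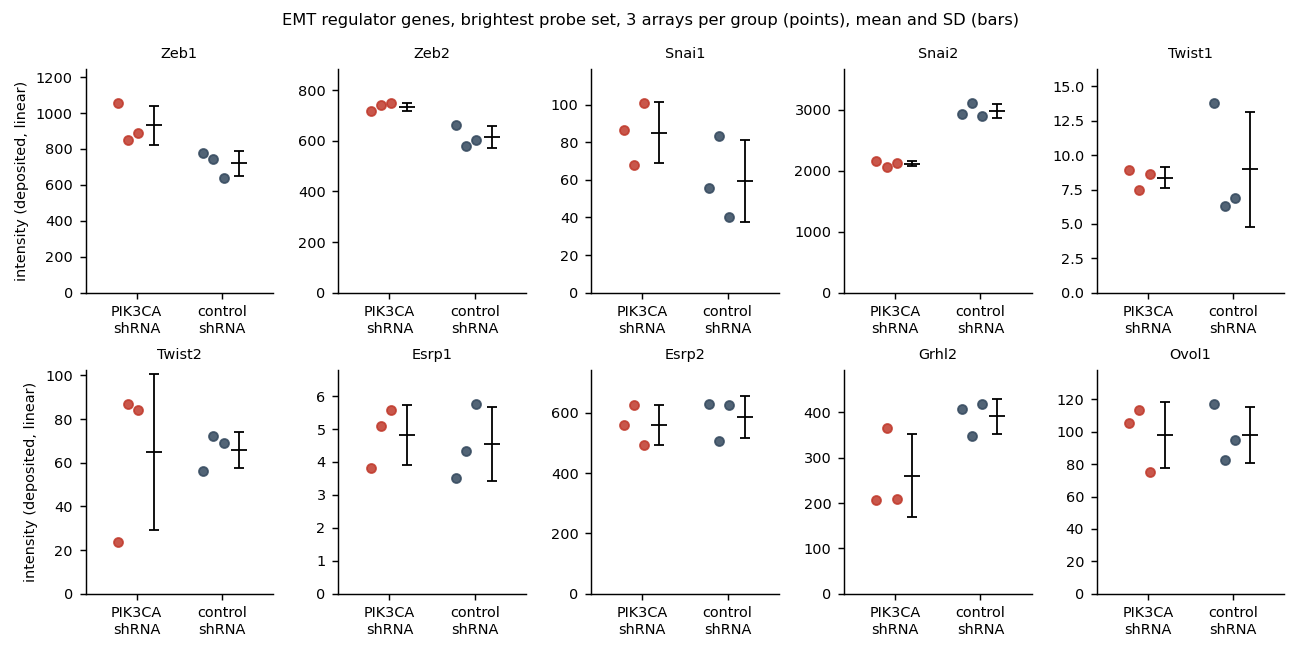
Deposited linear intensity of the brightest probe set of each of the 10 EMT regulators. Points are single arrays (red PIK3CA shRNA, dark blue-grey control shRNA), bars are the mean and SD of 3 arrays, and each panel has its own axis from 0. Snai2 is lower in all 3 PIK3CA shRNA arrays, Zeb1 and Zeb2 are higher in all 3, and the groups overlap in the other 7 genes.

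ZEB1 is the member most closely tied to repression of epithelial genes in lung cancer. Zeb1 had 1054, 852 and 889.6 intensity units in PIK3CA shRNA replicates 1, 2 and 3, against 775, 745 and 641 in control shRNA replicates 1, 2 and 3. Every PIK3CA shRNA array was above every control array, at 129% of the control mean. Its log2 change of 0.36 had a standard error of 0.12 and a 95% interval from 0.08 to 0.65, and it missed the threshold at an adjusted p of 0.116. The exact two-sided permutation p was 0.1, and 6 arrays in a pair of groups can give none smaller. Zeb1 has another 3 probe sets, all dimmer, and the groups overlapped in each. The brightest of these, 1443005_at, had 254, 202 and 164 in PIK3CA shRNA cells, against 188, 224 and 188 in control shRNA cells. Its log2 change was 0.03, and those of 1446127_at and 1420243_at were 0.23 and 0.42, all with intervals that included 0. All 4 changes were thus above 0, and the interval lay wholly above 0 for the brightest probe set alone.

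ZEB2 is a close relative of ZEB1 with the same pair of zinc finger clusters. Zeb2 had 717, 740.3 and 748 intensity units in PIK3CA shRNA cells, against 662, 580.0 and 605 in control shRNA cells. The groups did not overlap, and PIK3CA shRNA cells were at 119% of the control mean. The log2 change was 0.25 (standard error 0.07, 95% interval 0.08 to 0.42) with an adjusted p of 0.0818. It passed in a pair of alternatives, with dim genes left out (adjusted p = 0.0468) and with an intensity trend and robust prior (adjusted p = 0.0475), while its adjusted p over all alternatives ran from 0.0468 to 0.641. The second brightest of its 5 probe sets, 1456389_at, differed in sign (log2 change -0.28, adjusted p = 0.355), with 357, 321 and 324 in PIK3CA shRNA cells, against 356, 381 and 503 in control shRNA cells. The log2 changes of 1458941_at, 1422748_at and 1454200_at were 0.14, 0.02 and 0.36, all with intervals that included 0. In 1454200_at the groups did not overlap. As the mean of all 5 probe sets the log2 change of Zeb2 was 0.10.

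SNAI1 and SNAI2, also called Snail and Slug, bind the same E-boxes as the ZEB factors, and AKT signalling is known to stabilise the SNAI1 protein through GSK3. Snai1 had 86.6, 68.1 and 101 intensity units in PIK3CA shRNA cells, against 55.5, 83.1 and 40.1 in control shRNA cells. These are dim values, under the array median of all probe sets in all 6 arrays, and control replicate 2 lay within the range of the PIK3CA shRNA arrays. The log2 change of 0.45 had a 95% interval from -0.14 to 1.03 and an adjusted p of 0.311. A fall of more than 0.14 and a rise of more than 1.03 on the log2 scale were therefore outside the interval of Snai1.

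Snai2 was the 1 member to pass the threshold, and its 2 probe sets differed. The brighter, 1447643_x_at, had 2154, 2068 and 2123 intensity units in PIK3CA shRNA cells, against 2935, 3103 and 2900.3 in control shRNA cells. All 3 PIK3CA shRNA arrays were lower, by -0.49 on the log2 scale with a standard error of 0.06 and a 95% interval from -0.64 to -0.35 (limma adjusted p = 0.00767 over genes and 0.0202 over all probe sets). The other probe set, 1418673_at, had 1782, 2404 and 957 in PIK3CA shRNA cells, against 1250.4, 1262 and 1309 in control shRNA cells. Here the control arrays were tight, while PIK3CA shRNA replicates 1 and 2 lay above all of them and replicate 3 below. The log2 change of 1418673_at was 0.33 (95% interval -0.49 to 1.14, adjusted p = 0.659 over all probe sets). Array by array, the change of the brighter probe set was lower than that of the other by 0.82 on the log2 scale, with the groups apart and an exact two-sided permutation p of 0.1 (0.26 after adjustment over the 13 such pairs of probe sets). Affymetrix gives the suffix x_at to probe sets in which some probes also match other sequences, and whether such probes took part in the reading was not tested. As the mean of both probe sets, Snai2 changed by -0.08 and did not pass (adjusted p = 0.828). In the fit over genes the call held without each single array in turn, with adjusted p-values from 0.0290 to 0.0389. In the fit over probe sets it was lost in all 6 such omissions, with adjusted p-values from 0.0652 to 0.0838.

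**Figure D2:**
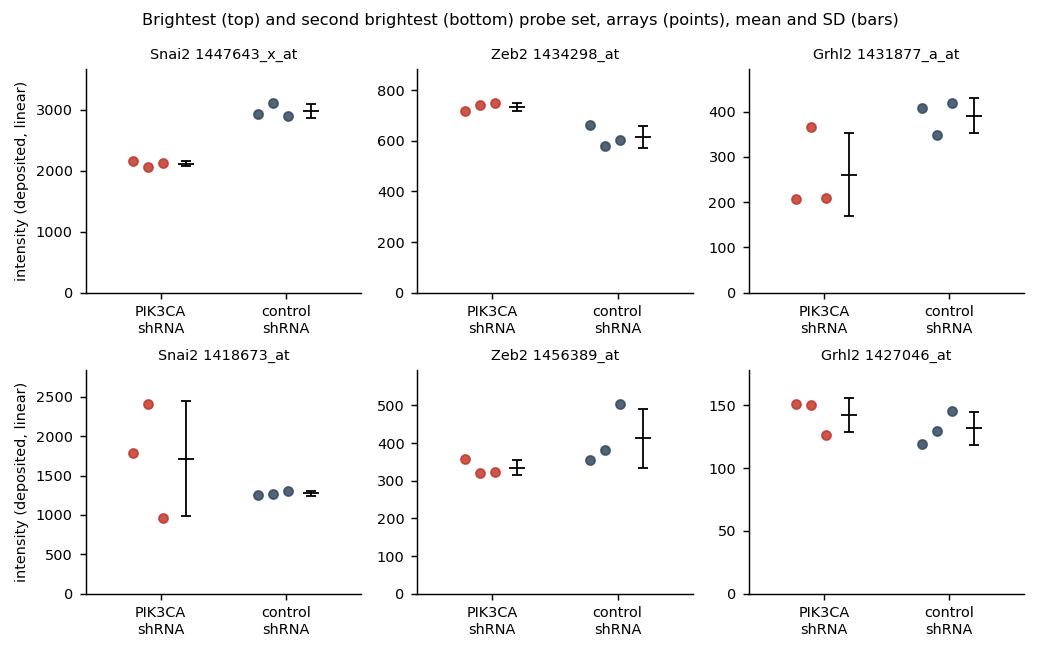
Deposited linear intensity of the brightest (top) and second brightest (bottom) probe set of Snai2, Zeb2 and Grhl2, with arrays as points (red PIK3CA shRNA, dark blue-grey control shRNA) and mean and SD of 3 arrays as bars, on axes from 0. In each of these 3 genes the PIK3CA shRNA mean lies on one side of the control mean in the top probe set and on the other side in the bottom one. Zeb1, Esrp2 and Ovol1, the other members with more than 1 probe set, are not drawn. In them the brightest and second brightest probe sets lie on the same side. Only the top Snai2 probe set passed adjusted p 0.05.

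The 3 genes whose pattern over the 6 arrays was nearest to that of the called Snai2 probe set, each centred on its own mean, were Srd5a3, Hsbp1 and Atp5k. The root mean square difference from Snai2 was 0.01, 0.02 and 0.02 on the log2 scale. Srd5a3, a polyprenol reductase gene needed for protein glycosylation, averaged 635 ± 9.52 in PIK3CA shRNA cells and 899 ± 25.7 in control shRNA cells (SD, n = 3 each). Hsbp1 encodes a binding partner of heat shock factor 1, and Atp5k a subunit of the mitochondrial ATP synthase. With 2 groups of arrays, this likeness is mostly the shared difference between groups.

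TWIST1 and TWIST2 act upstream of and beside the SNAIL factors. Twist1 was at 8.95, 7.48 and 8.64 intensity units in PIK3CA shRNA cells, against 13.8, 6.28 and 6.86 in control shRNA cells. All 6 values lay below the pseudocount of 16, where a change is hard to see, and the log2 change of -0.02 had an interval from -0.33 to 0.29. Twist2 was at 23.5, 86.7 and 84.2 in PIK3CA shRNA cells, against 56.3, 72.1 and 69.1 in control shRNA cells. PIK3CA shRNA replicate 1 was the lowest of the 6 and replicates 2 and 3 the highest, and the interval of the log2 change, -0.14, ran from -1.12 to 0.84. Without PIK3CA shRNA replicate 1 the log2 change of Twist2 was 0.32. Neither TWIST gene passed the threshold (adjusted p = 0.934 for Twist1 and 0.869 for Twist2).

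ESRP1 and ESRP2 are paralogous RNA-binding proteins that are usually silenced together in mesenchymal cells. Esrp1 was at 3.82, 5.08 and 5.58 intensity units in PIK3CA shRNA cells, against 3.52, 4.33 and 5.75 in control shRNA cells, below the pseudocount in all arrays. Its log2 change was 0.02 with an interval from -0.15 to 0.20 on this compressed scale (adjusted p = 0.891). Esrp2 was at 559, 625 and 494 in PIK3CA shRNA cells, against 629, 507 and 626 in control shRNA cells. The groups overlapped, and the log2 change of -0.07 had an interval from -0.39 to 0.25 (adjusted p = 0.792). A dimmer Esrp2 probe set, 1419977_s_at, had 256, 271 and 269 in PIK3CA shRNA cells, against 309, 380.3 and 388 in control shRNA cells. That probe set was lower in all 3 PIK3CA shRNA arrays, with a log2 change of -0.41 (95% interval -0.67 to -0.15), and missed the threshold over all probe sets at an adjusted p of 0.0999.

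GRHL2 activates E-cadherin and claudin genes and opposes Zeb1. Grhl2 had 206, 366 and 208 intensity units in PIK3CA shRNA cells, against 408, 347 and 418 in control shRNA cells. PIK3CA shRNA replicates 1 and 3 were well below the control arrays, and replicate 2 lay among them. The log2 change of -0.60 had a wide interval, from -1.19 to -0.02, and an adjusted p of 0.181. Without PIK3CA shRNA replicate 2 it was -0.86 and passed (adjusted p = 0.0225). Another 3 Grhl2 probe sets did not share this reading. The second brightest, 1427046_at, had 151, 150.1 and 127 in PIK3CA shRNA cells, against 119, 129.6 and 146 in control shRNA cells, a log2 change of 0.10. The dim 1431878_at had 5.19, 31.9 and 28.4 in PIK3CA shRNA cells, against 6.27, 5.68 and 7.56 in control shRNA cells. Without PIK3CA shRNA replicate 1 that dim probe set was higher by 1.04 on the log2 scale and passed in the fit over probe sets (adjusted p = 0.0212). Leaving out 1 array thus gave a lower Grhl2 by one probe set and leaving out another gave a higher Grhl2 by a different probe set.

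OVOL1 is a zinc finger factor that represses Zeb1 and promotes epithelial differentiation. Ovol1 had 105, 113 and 75.01 intensity units in PIK3CA shRNA cells, against 117, 82.6 and 94.8 in control shRNA cells. The ranges were nearly the same, and the log2 change of -0.01 had an interval from -0.45 to 0.43 (adjusted p = 0.983). Its other probe set, 1419052_at, ranged from 4.67 to 27.2 in PIK3CA shRNA cells and from 5.99 to 37.2 in control shRNA cells.

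**Figure D3:**
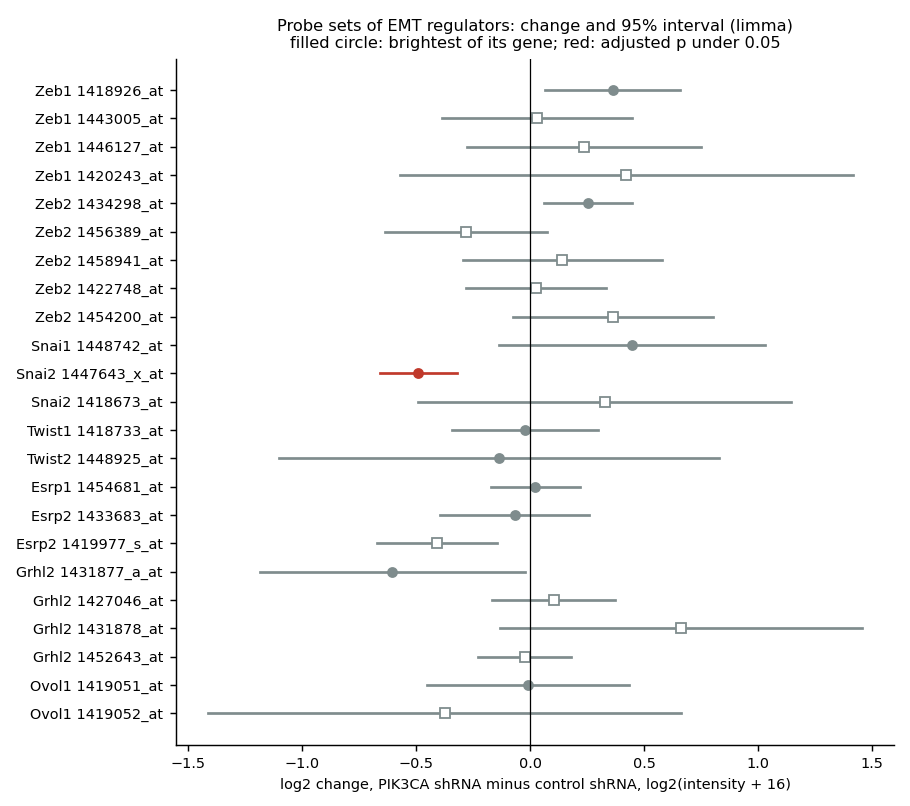
Log2 change (PIK3CA shRNA minus control shRNA, log2(intensity + 16)) with its 95% interval from the limma fit over all probe sets, for the 23 probe sets of the EMT regulators. Filled circles are the brightest probe set of a gene, open squares the others, and red marks adjusted p under 0.05, which 1 probe set of Snai2 reached.

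Over the 23 probe sets, 1 passed adjusted p 0.05, beside 4.94% of all probe sets. Groups did not overlap in 5 of the 23, 3 of them higher (1 of Zeb1 and a pair of Zeb2) and 2 lower (1 each of Snai2 and Esrp2), beside 27.2% of all probe sets. Of the 6 members with more than 1 probe set, no member had all its probe sets past the threshold.

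Genes around the members were taken from lists of factors, partners and targets. The counts of each list stand beside 11.5% of all genes past adjusted p 0.05 by limma (5.88% higher and 5.62% lower). At an unadjusted p under 0.05 the share of all genes was 25.9%, and no list was tested as a whole. Among 18 other measured EMT-inducing factors, 2 rose and 3 fell, and the list's median log2 change was 0.09. At an unadjusted p under 0.05, 3 were higher and 3 lower. Hmga2, a chromatin factor that induces Snai1 in TGF-beta signalling, rose to 7717 ± 90.3 in PIK3CA shRNA cells, against 5398 ± 151 in control shRNA cells (SD, n = 3 each). Fosl1, an AP-1 subunit gene, rose by 0.38. The forkhead gene Foxc1 fell by 0.57, and the zinc finger gene Zfp703 by 0.68. As the mean of its probe sets Zfp703 changed by -0.04 and did not pass. Fosl1 lost its call as the mean of its probe sets (0.40, adjusted p = 0.0746) and in 4 of 6 single-array omissions, while its log2 change over the omissions stayed between 0.36 and 0.40.

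Other epithelial-fate factors and splicing regulators had 3 of 20 measured genes higher and 0 lower by limma. At an unadjusted p under 0.05, 6 were higher and 2 lower, and the median log2 change was 0.01. Past the adjusted threshold, 3 were higher and 2 lower with dim genes left out. The counts were 4 and 1 with an intensity trend and robust prior, and 2 and 1 without control shRNA replicate 3. In the other alternatives 0 were lower. Hnf4a, a nuclear receptor of gut and liver epithelium, rose to 3658, 4141 and 3992 intensity units in PIK3CA shRNA cells, against 1838, 1807 and 1688 in control shRNA cells (log2 change 1.14, adjusted p = 0.00124). The Krüppel-like factor gene Klf4 rose by 0.46 and the pioneer factor gene Foxa1 by 0.38. Klf4 did not pass as the mean of its probe sets (0.30), and Foxa1 did not in 5 of 6 single-array omissions. The paralogs of Grhl2 and Ovol1 were dim and not called: Grhl1 averaged 76.9 ± 6.93 in PIK3CA shRNA cells and 112 ± 15.4 in control shRNA cells, Grhl3 averaged 58.4 ± 20.5 and 22.02 ± 12.4, and Ovol2 averaged 104 ± 8.61 and 114 ± 18.0, in the same order (SD, n = 3 each).

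Corepressors and chromatin partners through which ZEB and SNAIL factors act had 0 of 26 measured genes higher and 2 lower by limma, with 5 higher and 5 lower at an unadjusted p under 0.05. The deacetylase gene Sirt1 averaged 801 ± 49.9 in PIK3CA shRNA cells and 1171 ± 42.0 in control shRNA cells (SD, n = 3 each), a fall of 0.54 on the log2 scale. Bmi1, a Polycomb gene that TWIST1 is known to induce in human cells, fell by 0.37, a call that was lost in 5 of 6 single-array omissions. The list's median log2 change was 0.04. With a pseudocount of 64 or with dim genes left out, 3 passed as higher and 3 as lower. The counts were 3 and 4 with an intensity trend and robust prior. In the other alternatives 0 were higher.

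Genes that control the stability or activity of SNAIL and TWIST proteins had 3 of 25 higher and 4 lower by limma, beside 11.5% of all genes. At an unadjusted p under 0.05, 7 were higher and 4 lower, and the median log2 change was 0.03. Prkd1, which encodes protein kinase D1, a kinase that phosphorylates SNAI1 and opposes its repressor function, was at 45.3, 44.9 and 37.0 intensity units in PIK3CA shRNA cells, against 388, 411 and 352 in control shRNA cells. Id2, an inhibitor of basic helix-loop-helix factors, averaged 8978 ± 237 in PIK3CA shRNA cells and 5234 ± 196 in control shRNA cells (SD, n = 3 each). The ubiquitin ligase gene Siah1a fell by 1.23 and the deubiquitinase gene Usp27x, whose product stabilises SNAI1, by 0.46. As the mean of its probe sets the log2 change of Siah1a was -0.59, and that of Id2 was 0.78 by its brightest and 1.23 by its most variable probe set.

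The targets of ZEB and SNAIL factors among junction, polarity and keratin genes had 3 of 29 measured genes higher and 1 lower by limma, with a median log2 change of 0.14. At an unadjusted p under 0.05, 10 were higher and 4 lower, beside 25.9% of all genes in either direction. Groups did not overlap in 16 of the 29, beside 33.1% of all genes, and the list was not tested as a whole. The E-boxes of ZEB and SNAIL factors are the letters CAGGTG or CACCTG. These are reverse complements of each other, so a search for both covers both strands. In RefSeq promoter windows of 250 bases before the gene start (GRCm38.p6), at least 1 E-box was found in 17 of 28 windows (60.7%) of the 21 target genes that matched, beside 17.2% of all 32851 windows. Mesenchymal genes had 0 of 21 windows with the motif, from 18 matched genes. Of the members, Zeb2, Snai1, Twist1 and Twist2 matched, and 1 of their 7 windows held the motif, that of Snai1. A match is a description of letters, not of binding, and the target list was partly drawn from genes known for such sites.

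The window of Snai1 is shown as the 1 member with the motif, and those of Muc1, Ocln and Patj as the called target genes with it, each 5′ to 3′ on the strand of its gene with E-boxes in capitals. Snai1 is at chr2:167537945-167538194 (plus strand), Muc1 at chr3:89228806-89229055 (plus strand), Ocln at chr13:100552499-100552748 (minus strand, 1 of 2 windows) and Patj at chr4:98395576-98395825 (plus strand, 1 of 3 windows). The first bases of the E-boxes lie 126 bases before the start in Snai1, 234 and 70 in Muc1, 213 and 68 in Ocln and 19 in Patj.
Snai1: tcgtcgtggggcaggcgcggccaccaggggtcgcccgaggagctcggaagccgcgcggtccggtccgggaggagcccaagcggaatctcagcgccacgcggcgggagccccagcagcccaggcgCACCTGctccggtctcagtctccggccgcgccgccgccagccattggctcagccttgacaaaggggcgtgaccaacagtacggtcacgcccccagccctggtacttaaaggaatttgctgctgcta
Muc1: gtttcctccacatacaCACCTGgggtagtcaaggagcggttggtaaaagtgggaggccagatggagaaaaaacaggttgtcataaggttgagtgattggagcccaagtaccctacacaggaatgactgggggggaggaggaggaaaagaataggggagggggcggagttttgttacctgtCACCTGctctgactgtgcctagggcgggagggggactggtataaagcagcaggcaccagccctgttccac
Ocln: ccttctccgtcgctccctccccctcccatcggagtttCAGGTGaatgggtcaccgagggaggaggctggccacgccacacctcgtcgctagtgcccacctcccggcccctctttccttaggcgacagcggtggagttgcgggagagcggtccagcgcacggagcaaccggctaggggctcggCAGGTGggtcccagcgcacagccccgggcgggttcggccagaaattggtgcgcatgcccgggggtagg
Patj: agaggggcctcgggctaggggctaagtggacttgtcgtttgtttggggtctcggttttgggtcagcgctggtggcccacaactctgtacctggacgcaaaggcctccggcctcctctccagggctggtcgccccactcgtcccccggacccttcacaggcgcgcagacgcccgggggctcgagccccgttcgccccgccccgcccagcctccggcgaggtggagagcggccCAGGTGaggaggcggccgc

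Muc1, a transmembrane mucin gene, was at 875, 606 and 771 intensity units in PIK3CA shRNA cells, against 52.3, 106 and 50.3 in control shRNA cells. Ocln, the gene of the tight junction protein occludin, was at 956, 852 and 797 in PIK3CA shRNA cells, against 458, 415 and 411 in control shRNA cells. Spint1, a gene for an inhibitor of membrane serine proteases whose 1 window held no E-box, was at 447, 530.1 and 457 in PIK3CA shRNA cells, against 205, 201 and 236 in control shRNA cells. All 3 were higher in every PIK3CA shRNA array, and limma gave adjusted p-values of 0.00296, 0.00346 and 0.00346. Patj, a polarity scaffold gene, was at 566, 572 and 624 in PIK3CA shRNA cells, against 717, 752 and 735 in control shRNA cells (adjusted p = 0.0348), and its call was lost without any 1 of the 6 arrays. A gene was counted as having an E-box if any of its windows held the motif. The windows of Ocln and Patj that are not shown lacked it, as did a window of Cldn7. Of the 15 matched target genes with an E-box, 2 rose (Muc1 and Ocln), 1 fell (Patj) and 12 were not called, among them Krt8 and Krt18. Of the 6 matched genes without one, 1 rose (Spint1) and 5 were not called.

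Mesenchymal genes had 2 of 28 measured genes higher and 4 lower by limma, beside 11.5% of all genes. At an unadjusted p under 0.05, 3 were higher and 4 lower, and the median log2 change was -0.05. S100a4, a calcium-binding protein gene used as a marker of motile mesenchymal cells, fell to 492, 411 and 547 intensity units in PIK3CA shRNA cells, against 3166, 3177 and 3342 in control shRNA cells. The matrix gene Thbs1 fell by 0.91. The N-cadherin gene Cdh2 rose to 1788 ± 32.2 in PIK3CA shRNA cells, against 1247 ± 27.5 in control shRNA cells (SD, n = 3 each), and the matrix gene Sparc rose by 0.60. As the mean of their probe sets, Cdh2 did not pass (0.32, adjusted p = 0.0524) and Sparc was at 0.31 (adjusted p = 0.0480). Fn1, the fibronectin gene, averaged 4522 ± 221 in PIK3CA shRNA cells and 4148 ± 400.0 in control shRNA cells (SD, n = 3 each) and was not called.

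**Figure D4:**
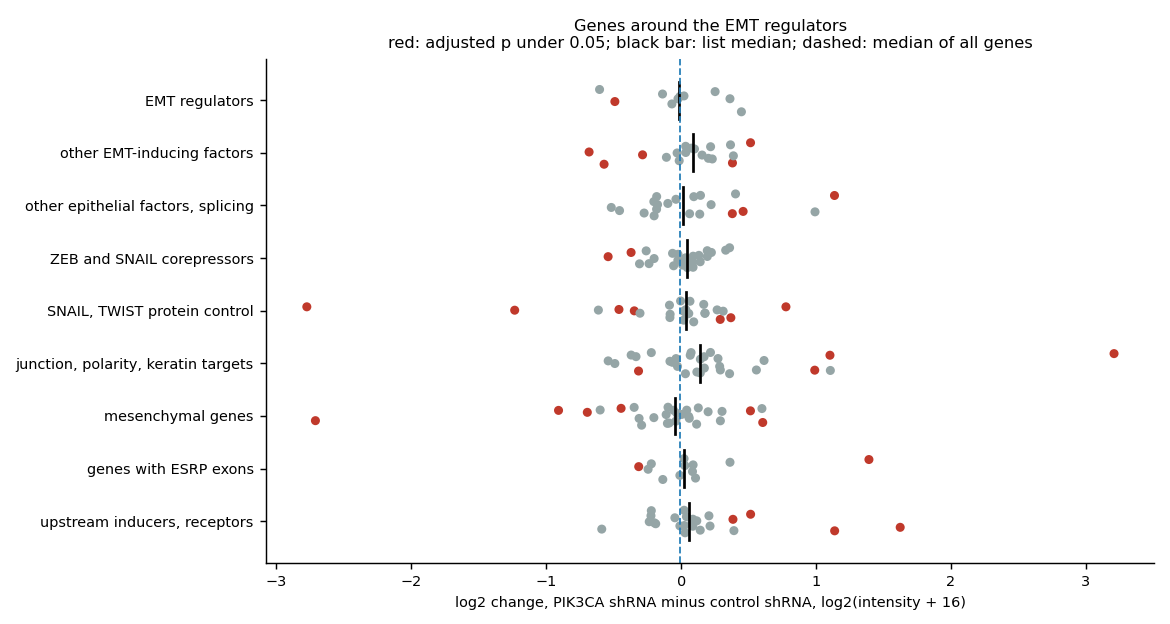
Log2 change (PIK3CA shRNA minus control shRNA, log2(intensity + 16)) of every measured gene of the EMT regulators and of 8 lists around them. Red points passed adjusted p 0.05, black bars are list medians and the dashed line is the median of all genes, -0.01. List medians lie between -0.05 and 0.14, and the largest single changes are those of Muc1, Prkd1 and S100a4.

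Among 12 genes with exons chosen by ESRP proteins, 1 rose and 1 fell in total signal by limma, beside 11.5% of all genes. At an unadjusted p under 0.05, 2 were higher and 2 lower, and the median log2 change was 0.02. These arrays give 1 value per probe set, and exon choice was not analysed here. The scaffold gene Magi1 averaged 397 ± 56.5 in PIK3CA shRNA cells and 145 ± 48.4 in control shRNA cells (SD, n = 3 each). Its log2 change was 1.39 by this probe set, and 1.25 to 1.63 by the same probe set without each single array. Without any 1 of the PIK3CA shRNA arrays another Magi1 probe set was the brightest and stood for the gene, with log2 changes of 0.50, 0.60 and 0.52, and the call was lost in 5 of 6 single-array omissions. Enah, an actin regulator gene, fell by 0.31, but was at 0.14 as the mean of its probe sets and at 0.81 by its most variable probe set (largest interquartile range), and it kept its call in none of the 6 single-array omissions. The p120-catenin gene Ctnnd1 (0.36), Cd44 (0.02) and Fgfr2 (-0.22), the genes best known for ESRP-controlled exons, were not called, with adjusted p-values of 0.130, 0.867 and 0.512.

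Upstream inducers and receptors had 4 of 24 measured genes higher and 0 lower by limma, beside 11.5% of all genes. At an unadjusted p under 0.05, 5 were higher and 3 lower, and the median log2 change was 0.06. With a pseudocount of 64, dim genes left out, or an intensity trend and robust prior, 1 passed as lower. The lower count was also 1 by each gene's most variable probe set. Jag1, a Notch ligand gene, was at 5162, 5219.5 and 5034 intensity units in PIK3CA shRNA cells, against 2305, 2497 and 2186 in control shRNA cells. Tgfb3, a TGF-beta ligand gene, was dim at 75.5, 54.8 and 68.4 in PIK3CA shRNA cells, against 12.6, 9.81 and 9.33 in control shRNA cells, where all values lay below the pseudocount. The activin receptor gene Acvr1b rose by 0.51 and the signal transducer gene Smad3 by 0.38. Acvr1b was at 0.66 as the mean of its probe sets and at 0.81 by its most variable one and did not pass in either. Smad3 lost its call in 5 of 6 single-array omissions, with log2 changes from 0.35 to 0.44 over all 6. Tgfb3 had a log2 change of 1.62, which was 2.54 at a pseudocount of 1 and 0.80 at 64.

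**Figure D5:**
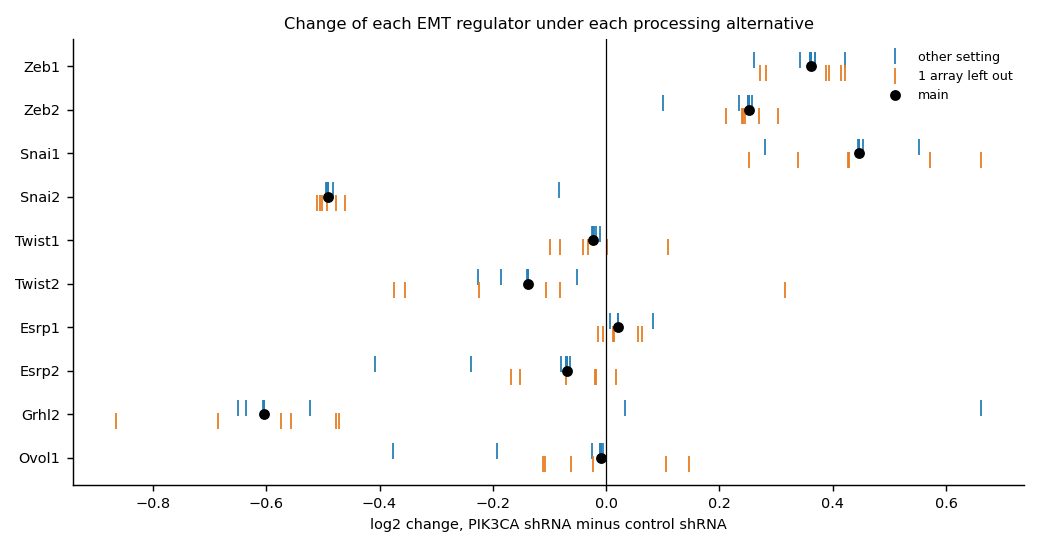
Log2 change of each EMT regulator (PIK3CA shRNA minus control shRNA) with all arrays and the main processing (black), under each other setting (blue) and without each single array (orange). Zeb1, Zeb2 and Snai1 stay above 0 and Snai2 below 0 in every setting drawn, while Grhl2 runs from -0.86 to 0.66.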

How the data were processed

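RNA of 344SQ cells was hybridised to Affymetrix arrays with a biotin label, per the labels' protocols. The authors' deposited values are linear intensities with the same minimum and nearly equal quartiles on all 6 arrays; the sources used here do not give the method behind them. Precision is limited by the number of arrays. The 64 control probe sets were left out, the arrays were given one median by scaling, and log2(intensity + 16) was taken. Of the others, 34945 had 1 gene symbol in the platform annotation, 932 several and 9160 none listed; 34741 matched RefSeq by gene identifier. Each gene was represented by its brightest probe set over all arrays. The comparison used limma 3.58.1 (R 4.3.3), two-sided, with Benjamini-Hochberg adjustment over all 18193 genes, or over all 45037 probe sets where stated, at adjusted p 0.05. Single values used exact permutation tests over the 20 assignments. The rule for named genes was all members, up to 4 called genes per list by adjusted p, and the 3 nearest patterns to a called member; Cdh1, Krt8, Krt18, Vim, Fn1, the Grhl and Ovol paralogs, Ctnnd1, Cd44 and Fgfr2 were named after their values were seen. Members and lists were chosen with earlier results of these data known. In simulated data with 18193 genes, log2 changes of 0.5, 1 and 2 were put into 67, 67 and 66 genes. Of these, 23.9%, 59.7% and 86.4% were recovered. The simulation made 116 calls, against 2093 in the data, and Benjamini-Hochberg adjustment depends on how many genes change. These shares are therefore not the recovery rates of the real comparison. Figures used matplotlib 3.10.9.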

Additional observations from a re-analysis of the deposited data

How the results depend on the processing

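The count of all genes past the threshold was 2093 in the main setting, 636 at adjusted p 0.01, 3192 with limma's trend and robust options, and 945 to 1144 without single arrays. Members past it were 2 of the 8 tested with dim genes left out and 2 of 10 with trend and robust options (Snai2 and Zeb2 each time), 0 as the mean of probe sets (2 at an unadjusted p under 0.05), and 1 to 2 without single arrays. Member probe sets past it were 0 at adjusted p 0.01 by limma (5 at an unadjusted p under 0.05) and 0 to 1 without single arrays (2 to 5 likewise). With the replicate number as a block, limma called 413 genes, 0 members (3 at an unadjusted p under 0.05) and 0 member probe sets (3 likewise), and Snai2 had an adjusted p of 0.0739. The numbers are not known to pair arrays: deviations of same-numbered arrays correlated at 0.05, -0.02 and -0.02, and not every array correlated best with its own number. Of the 36 genes called among Pik3ca, members and lists, 12 kept their call in the block fit. Zeb1, Zeb2 and Snai1 kept their sign in all alternatives, with Snai1 between 0.25 and 0.66. Other uncalled members turned sign: without single arrays Twist1 ran from -0.10 to 0.11, Twist2 from -0.37 to 0.32, Esrp1 from -0.0148 to 0.0633, Esrp2 from -0.17 to 0.0168 and Ovol1 from -0.11 to 0.15. Grhl2 kept its sign without single arrays, but was 0.0337 as the mean of probe sets and 0.66 by its most variable probe set. Scaling, quantile normalization, pseudocounts of 1 and 64 and array weights changed no call of a member. Dim signal limits Twist1 and Esrp1, with all arrays below the pseudocount, and to a lesser degree Twist2 and Snai1. The cause of these shifts was not tested.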
